A study of Mus musculus with 6 samples.

Results

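The genes described here encode receptors for serotonin (5-hydroxytryptamine, 5-HT). They are the rows of the deposited gene table named Htr1a, Htr1b, Htr2a, Htr2c, Htr3a, Htr4, Htr5a, Htr5b, Htr6 and Htr7, which makes 10 of 33385 genes. Htr3a was picked for its higher level in the knockdown libraries, so its group values are a description and carry no test. The other 9 were taken by family. RNA sequencing of the hippocampus compared 2 groups of mice that all carry a floxed Bcas2 gene (Bcas2F/F). The knockdown group (n = 3 libraries, genotype label Bcas2 knockdown) had received AAV2/9-Syn-cre, an adeno-associated virus with Cre recombinase under the synapsin promoter, which is active in neurons and not in glia. The control group (n = 3 libraries, genotype label WT) had received AAV-vehicle, and its animals carry the same floxed alleles. Age, sex, time after injection and batch are not in the labels. Nor do they tie each library to its own animal, so the p-values reflect library-to-library spread, which may be technical.

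Serotonin reaches the hippocampus through axons of the raphe nuclei, whose cell bodies lie in the brainstem. Nearly all of its receptors are G protein-coupled. The 5-HT1 and 5-HT5 receptors couple to Gi/o and lower cyclic AMP, the 5-HT2 receptors couple to Gq and phospholipase C, and the 5-HT4, 5-HT6 and 5-HT7 receptors couple to Gs and raise cyclic AMP. The 5-HT3 receptor alone is a pentameric cation channel of the Cys-loop family, and HTR3A is the subunit that can form it without partners. In the mouse hippocampus and cortex Htr3a is known from GABAergic interneurons that arise in the caudal ganglionic eminence, including cells with Vip, Reln or Cck.

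The libraries held 55914768 to 76481458 deposited counts each, over 26028 to 26973 detected genes. The targeted gene, Bcas2, was at 9.04 ± 0.151 FPKM in knockdown libraries and 9.68 ± 0.216 FPKM in control libraries (SD, n = 3 each). That is 93.4% of the control level, with FPKM values that did not overlap, where 7.5% of all genes tested lay wholly lower. The log2 fold change of -0.07 (SE 0.0649, edgeR adjusted p = 0.861) did not pass the threshold. A clear reduction of Bcas2 was thus not shown in these libraries, and knockdown is used here as the name on their label. FPKM is the authors' level, scaled to gene length and library depth, so levels can be compared between genes. The tissue label was set beside 12 markers of hippocampal principal neurons. Their summed level was 469 to 547 FPKM across knockdown libraries and 499 to 516 FPKM across control libraries. Slc17a7 alone was at 221 to 257 FPKM over the 6 libraries, so the sum leans on 1 gene. All 12 were detected in every library, among them Prox1 of the dentate gyrus and Fibcd1 of CA1. Control replicates 2 and 3 alone had counts of Y-linked genes. The X-linked gene Xist was at 0.00137 and 0.0213 FPKM in them, and at 43.9 to 58.6 FPKM in the 4 libraries without Y-linked counts. This pattern was thus uneven between the groups, since no knockdown library had Y-linked counts. Control replicate 3 also had a summed level of 4910 FPKM over 10 choroid plexus markers, against 26.0 to 53.7 FPKM in the other 5 libraries. Knockdown replicate 1 had a summed level of 169 FPKM over 8 striatal markers, against 37.8 to 51.4 FPKM elsewhere. In bulk tissue a change in the number of cells of a type cannot be told apart from a change in RNA per cell.

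Htr3a (ENSMUSG00000032269) lies on the minus strand of chromosome 9 from 48810513 to 48822399 in GRCm39. Its level was 4.78, 4.27 and 4.19 FPKM in knockdown replicates 1 to 3, and 2.24, 2.31 and 2.06 FPKM in control replicates 1 to 3. The groups did not overlap, and each of the 3 knockdown libraries was above every control library. The mean was 4.42 ± 0.317 FPKM across knockdown libraries and 2.2 ± 0.13 FPKM across control libraries (SD, n = 3 each), a ratio of 2.01. The deposited counts behind these levels were 684, 579 and 525 in knockdown libraries and 384, 310 and 269 in control libraries. Across all 20946 genes tested, 13.0% had groups that did not overlap, and 5.47% lay wholly higher in the knockdown group. Since Htr3a was picked on this contrast, nothing is read from its place among them.

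Knockdown replicate 1, with the striatal transcripts, had the highest Htr3a level of the 6 libraries (4.78 FPKM), and control replicate 3, with the choroid plexus transcripts, had the lowest (2.06 FPKM). Control replicate 1, with no Y-linked counts, was at 2.24 FPKM, between the 2 libraries that had them (2.31 and 2.06 FPKM). The part of these differences between libraries in the Htr3a values was not tested. The log2 fold change of Htr3a was 1.02 in edgeR's fit and 0.97 to 1.06 when any single library was left out. Among the 4 libraries without Y-linked counts it was 0.99, with control replicate 1 as the only control. On log2(FPKM + 1), a scale that understates changes of low genes, the difference was 0.76.

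**Figure D1:**
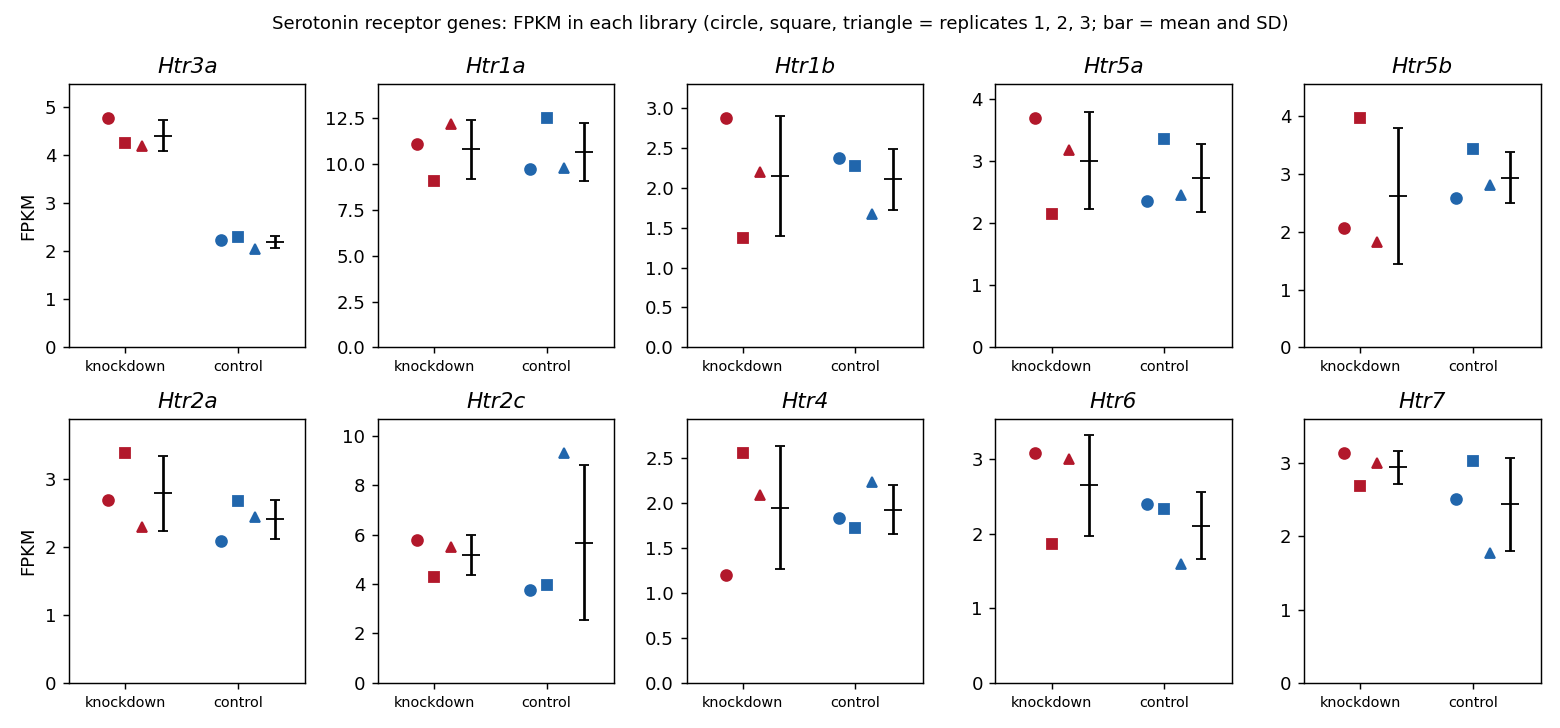
FPKM of the 10 serotonin receptor genes in each library, with knockdown libraries in red and control libraries in blue, and the mean and SD of each group beside them. Htr3a is at 4.19 to 4.78 FPKM across knockdown libraries and at 2.06 to 2.31 FPKM across control libraries, while the groups overlap for the other 9 genes.

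Its place among the receptors differed between the groups. In the knockdown libraries Htr3a ranked 3, 2 and 3 of the 10 genes, and in the control libraries 8, 8 and 7. Htr1a ranked first in all 6 libraries, at 10.8 ± 1.6 FPKM across knockdown libraries and 10.6 ± 1.57 FPKM across control libraries (SD, n = 3 each). Htr2c came next by mean, at 5.18 ± 0.8 FPKM across knockdown libraries and 5.68 ± 3.13 FPKM across control libraries. Below Htr2c, no neighbours in the order of the control group were separated, since the ranges of each pair overlapped from Htr5b at 2.94 FPKM down to Htr4 at 1.93 FPKM. In the knockdown group, Htr3a overlapped with Htr2c above it and lay clear of Htr5a below it, whose highest library was at 3.69 FPKM. The remaining ranges overlapped from neighbour to neighbour, from Htr5a at 3.01 FPKM down to Htr4 at 1.95 FPKM.

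Of the 9 receptors other than Htr3a, none differed between the groups beyond the spread of the libraries. All 10 members passed the count filter. In edgeR's quasi-likelihood test with Benjamini-Hochberg adjustment, 0 of the 9 passed an adjusted p of 0.05, where 0.0% of all genes did. At an unadjusted p under 0.05 it was also 0 of 9, against 6.19% of all genes. DESeq2 called 0 of the 9 as well, where it called 0.353% of all genes. At an unadjusted p under 0.05, DESeq2 had 0 of 9 beside 7.18% of all genes, and limma had 0 of 9 beside 6.91%. Log2 fold changes were positive for 7 and negative for 2, with a median of 0.05, beside 10449 positive and 10497 negative among all genes tested. The groups overlapped for all 9, where 7.5% of all genes lay wholly lower in the knockdown group and 5.47% wholly higher. A miss here does not show equal levels, because the 95% intervals reach from 53.7% of the control level for Htr2c to 195% for Htr6.

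**Figure D2:**
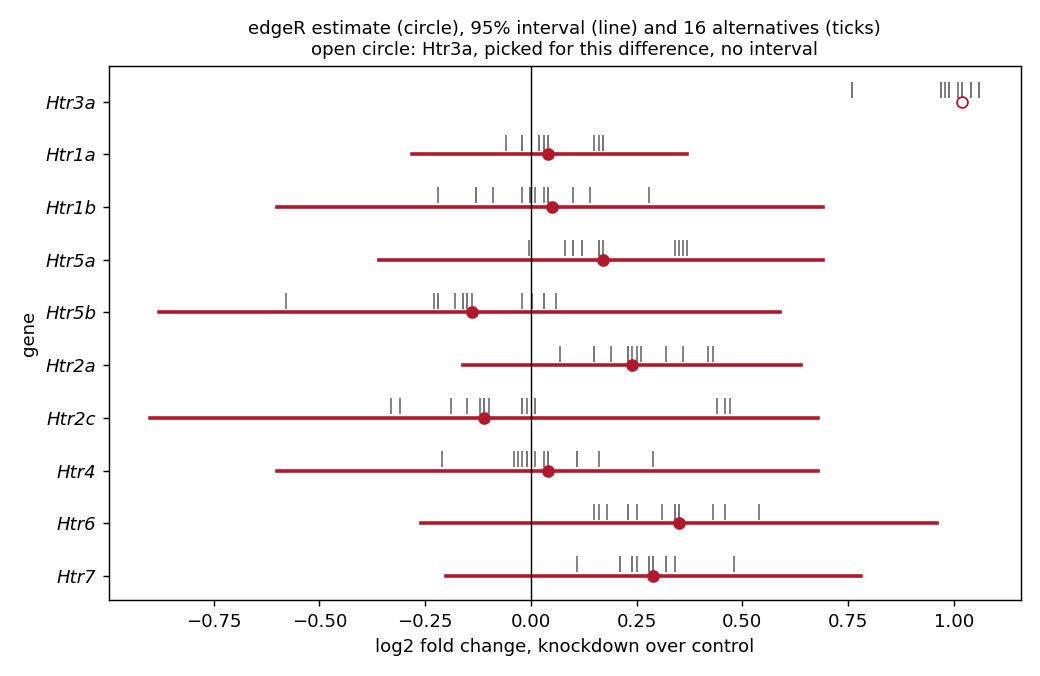
Log2 fold changes (knockdown over control) of the 10 genes, with edgeR's estimate as a circle, its 95% interval as a line and 16 alternative fits as ticks. Every interval shown spans 0, the ticks of Htr1a, Htr1b, Htr2c, Htr4, Htr5a and Htr5b fall on both sides of 0, and Htr3a, at 1.02, is drawn without an interval because it was picked for this difference.

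Among the Gi/o-coupled receptors, Htr1a encodes the 5-HT1A receptor, which opens GIRK potassium channels in pyramidal and granule neurons. Its level was 11.1, 9.07 and 12.2 FPKM in knockdown libraries and 9.71, 12.5 and 9.77 FPKM in control libraries. The values interleave, with a log2 fold change of 0.04 (SE 0.14, edgeR adjusted p = 0.965) and an interval of 82.1% to 129% of the control level, the narrowest of the 9. Htr1b encodes the 5-HT1B receptor, which sits mainly on axon terminals. It was at 2.87, 1.37 and 2.19 FPKM in knockdown libraries and 2.37, 2.27 and 1.67 FPKM in control libraries. Knockdown libraries held both its highest and its lowest value, and the log2 fold change was 0.05 (SE 0.275, edgeR adjusted p = 0.982).

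Htr5a encodes the 5-HT5A receptor. Its level was 3.69, 2.15 and 3.17 FPKM in knockdown libraries, against 2.35, 3.35 and 2.46 FPKM in control libraries (log2 fold change 0.17, SE 0.224, edgeR adjusted p = 0.908). Htr5b, whose human counterpart is a pseudogene, was at 2.06, 3.96 and 1.82 FPKM in knockdown libraries and 2.58, 3.42 and 2.8 FPKM in control libraries. Knockdown replicate 2 was the highest of the 6 libraries and the other knockdown libraries were the lowest. The log2 fold change was -0.14 (SE 0.315, edgeR adjusted p = 0.945), and without knockdown replicate 2 it was -0.58.

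The Gq-coupled receptors were Htr2a and Htr2c. Htr2a, the 5-HT2A receptor at which classic psychedelics act, was at 2.69, 3.37 and 2.29 FPKM in knockdown libraries and 2.09, 2.67 and 2.44 FPKM in control libraries. Its log2 fold change was 0.24 (SE 0.172, edgeR adjusted p = 0.838) and did not pass the threshold. Over the 16 alternatives it was 0.07 to 0.43, and Htr6 and Htr7 also stayed positive in all of them. The alternatives refit the same libraries or some of them, so a kept sign adds no support. Htr2c, an X-linked gene, encodes the 5-HT2C receptor of neurons and is also known for high expression in the choroid plexus epithelium. It was at 5.77, 4.27 and 5.5 FPKM in knockdown libraries and 3.78, 3.96 and 9.29 FPKM in control libraries. Control replicate 3, the library with the choroid plexus transcripts, held the highest value, and the other controls the lowest.

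The Htr2c comparison rested on that library. With all 6 libraries the log2 fold change was -0.11 (SE 0.337, edgeR adjusted p = 0.964). Without control replicate 3 it was 0.44, with an unadjusted edgeR p of 0.0172 and an adjusted p of 0.986, so that it did not pass the threshold over all genes. Ttr, the transthyretin gene that defines choroid plexus, was at 0.349, 12.3 and 5.15 FPKM in knockdown libraries and 11.2, 12.9 and 4180 FPKM in control libraries. All 10 choroid plexus markers had negative log2 fold changes, with a median of -3.77 and led by Slc4a5 and Aqp1. Of the 10, 0 passed an adjusted p of 0.05 in edgeR. At an unadjusted edgeR p under 0.05 there were 8, all lower, beside 3.16% of all genes tested. The part of these transcripts in the Htr2c values was not tested.

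**Figure D3:**
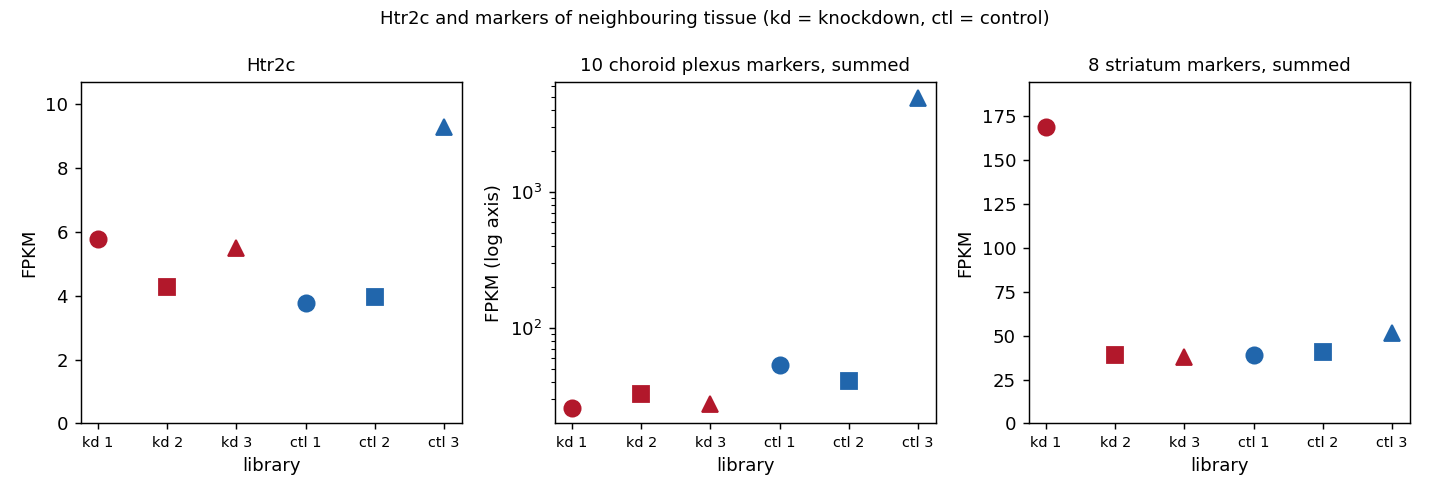
FPKM of Htr2c, summed FPKM of 10 choroid plexus markers (log axis) and summed FPKM of 8 striatal markers in each of the 6 libraries. Control replicate 3 is highest for Htr2c (9.29 FPKM) and for the choroid plexus sum (4910 FPKM), and knockdown replicate 1 is highest for the striatal sum (169 FPKM).

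The Gs-coupled receptors all had positive log2 fold changes, none past the threshold. Htr4, the 5-HT4 receptor, was at 1.2, 2.55 and 2.09 FPKM in knockdown libraries and 1.83, 1.72 and 2.23 FPKM in control libraries. Its log2 fold change was 0.04 (SE 0.275, edgeR adjusted p = 0.983), and knockdown replicate 1 was the lowest of all 6. Htr6 encodes the 5-HT6 receptor, which is found on neuronal primary cilia. It was at 3.08, 1.87 and 3 FPKM in knockdown libraries and 2.4, 2.34 and 1.59 FPKM in control libraries, a log2 fold change of 0.35 (SE 0.261, edgeR adjusted p = 0.838). Htr7, the 5-HT7 receptor, was at 3.13, 2.69 and 3 FPKM in knockdown libraries and 2.51, 3.03 and 1.77 FPKM in control libraries, a log2 fold change of 0.29 (SE 0.208, edgeR adjusted p = 0.837). For both, the lowest library was control replicate 3, and without it the log2 fold change was 0.18 for Htr6 and 0.11 for Htr7. The exact two-sided permutation test of log2(FPKM + 1) over 20 assignments of the libraries gave p = 0.3 for Htr6 and for Htr7, the smallest among the 9, where 3 against 3 allow no less than 0.1.

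Knockdown replicate 1, the library with the striatal transcripts, was the highest of the 6 for Htr1b, Htr3a, Htr5a, Htr6 and Htr7 and the lowest for Htr4. Drd2, a defining striatal gene, had a level of 8.14 FPKM in it, beside 0.546 to 1.88 FPKM in the other libraries, and Adora2a was at 8.22 FPKM against 0.252 to 0.461 FPKM. The list of 8 striatal genes was written after these values were seen. Without knockdown replicate 1 the log2 fold change was -0.22 for Htr1b, -0.0046 for Htr5a, 0.97 for Htr3a, 0.23 for Htr6, 0.25 for Htr7 and 0.29 for Htr4. None of the receptors other than Htr3a, which was not tested, passed the threshold. The part of the striatal transcripts in these values was not tested.

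The upstream sequences of the receptors differed widely in CpG content. RefSeq promoter entries on GRCm38.p6 were used for 7 of the 10 members. Htr3a, Htr4 and Htr5b were not among the entries used. Their absence here does not show that they lack a promoter entry. In the 250 bases before the start, Htr2a had 4 CpG dinucleotides, Htr2c had 5, Htr1a and Htr1b had 6 each, and Htr5a had 13. Htr6 had 9 and 23 at its 2 listed starts, and Htr7 had 41, where the median over 32841 promoters was 6. The sequences of Htr1a, the highest of the 10 genes, and of Htr7, the richest in CpG, are shown. They were picked as these extremes, so no relation of level to CpG content is read from the pair. Htr1a averaged 10.7 FPKM over the 6 libraries and Htr7 averaged 2.69 FPKM. Capitals mark each CpG, and both are written 5′ to 3′ on the strand of the gene.
Htr1a, chr13:105443443-105443692, plus strand of GRCm38.p6: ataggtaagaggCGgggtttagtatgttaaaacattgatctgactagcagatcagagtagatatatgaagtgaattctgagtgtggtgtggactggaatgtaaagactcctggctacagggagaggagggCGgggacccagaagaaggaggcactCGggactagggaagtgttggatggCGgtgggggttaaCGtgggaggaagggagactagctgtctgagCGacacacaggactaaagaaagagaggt
Htr7, chr19:36057361-36057610, minus strand of GRCm38.p6: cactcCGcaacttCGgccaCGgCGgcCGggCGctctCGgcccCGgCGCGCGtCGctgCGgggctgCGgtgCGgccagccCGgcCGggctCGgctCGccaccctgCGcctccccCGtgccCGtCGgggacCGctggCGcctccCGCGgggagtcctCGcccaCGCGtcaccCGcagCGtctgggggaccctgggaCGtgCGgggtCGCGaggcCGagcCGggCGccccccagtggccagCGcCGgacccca
The GC box GGGCGG, searched on both strands, was found upstream of 3 of the 7 members (Htr1a, Htr2a and Htr6), and 32.7% of all promoters held it. Members were counted if any listed start had the box, while the share is per promoter. Htr6 had it at the start with 23 CpG and not at the start with 9. The letters TATAAA on either strand were in 0 of the 7 and in 12.4% of all promoters. These matches describe the letters in the window only.

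Htr3a was then set beside the markers of the neurons that are known to carry it. Of 12 markers of the 5-HT3A class of interneurons, 6 had positive and 6 negative log2 fold changes, with a median of -0.01 (-0.00053 over all genes tested), and 0 passed an adjusted p of 0.05 in edgeR. At an unadjusted edgeR p under 0.05, 1 was higher and 2 were lower, beside 3.03% and 3.16% of all genes tested. The lower genes were Id2, at 20.6 FPKM across knockdown libraries and 26.1 FPKM across control libraries, and Cck, at 125 FPKM and 150 FPKM in the same order. Pyramidal neurons express Cck and many cell types express Id2. The summed level of the 12 was 248 to 268 FPKM across knockdown libraries and 289 to 292 FPKM across control libraries. Cck is the largest part of this sum, and Cck and Id2 carry most of its difference. The sum therefore does not show a lower level of the class as a whole.

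Markers of subtypes of the class lay in both directions. Ndnf, a marker of neurogliaform cells, was lower without overlap, where 7.5% of all genes tested lay wholly lower. It was at 2.41, 1.92 and 2.59 FPKM in knockdown libraries and 2.77, 2.68 and 2.77 FPKM in control libraries (log2 fold change -0.23, SE 0.121, edgeR adjusted p = 0.802). Lamp5, also of neurogliaform cells, and Calb2, which encodes calretinin, had log2 fold changes of -0.30 and -0.18, with overlapping groups. Vip, a peptide of one of its subtypes, was at 6, 6.69 and 5.47 FPKM in knockdown libraries and 3.16, 6.84 and 4.95 FPKM in control libraries. Adarb2, an RNA-editing family member that marks interneurons of caudal origin, was at 2.95, 3.53 and 3.6 FPKM in knockdown libraries and 2.62, 3.05 and 2.9 FPKM in control libraries. Its log2 fold change was 0.26 (SE 0.103, edgeR adjusted p = 0.792), and the groups overlapped. Vip overlapped as well, since control replicate 2 was the highest library.

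Of 6 pan-GABAergic genes, 5 had positive log2 fold changes and 1 a negative one, with a median of 0.23, and 0 passed an adjusted p of 0.05. Gad1, a GABA-synthesizing enzyme, was at 49.9, 36.9 and 46.6 FPKM in knockdown libraries and 41.8, 38.1 and 34.4 FPKM in control libraries. Of 8 markers of the Pvalb and Sst classes, 6 had positive and 2 negative log2 fold changes, with a median of 0.14, and 0 passed an adjusted p of 0.05. At an unadjusted edgeR p under 0.05, 1 of the 8 was higher and 0 were lower, beside 3.03% and 3.16% of all genes tested. The groups did not overlap for 2 of the 8, both higher, beside 5.47% of all genes tested. Lhx6, the transcription factor of that lineage, was at 3.71, 3.51 and 3.18 FPKM in knockdown libraries and 2.4, 3.09 and 2.57 FPKM in control libraries. Its edgeR p was 0.0215 unadjusted and 0.792 adjusted. Tac1, also a striatal gene, was at 8.13 FPKM in knockdown replicate 1 and at 0.674 to 1.22 FPKM in the other 5 libraries.

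Htr3a was also expressed relative to GABAergic markers. Per 100 FPKM of Gad1 there were 9.58, 11.6 and 9 FPKM of Htr3a in knockdown libraries and 5.36, 6.06 and 5.97 FPKM in control libraries, a ratio of means of 1.73. The ratio of means was 1.7 against Gad2 and 1.66 against Slc32a1, the vesicular GABA transporter. These ratios carry the contrast on which Htr3a was picked, so they are given without a test and nothing is read from them. The part of the number of GABAergic cells was not tested.

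**Figure D4:**
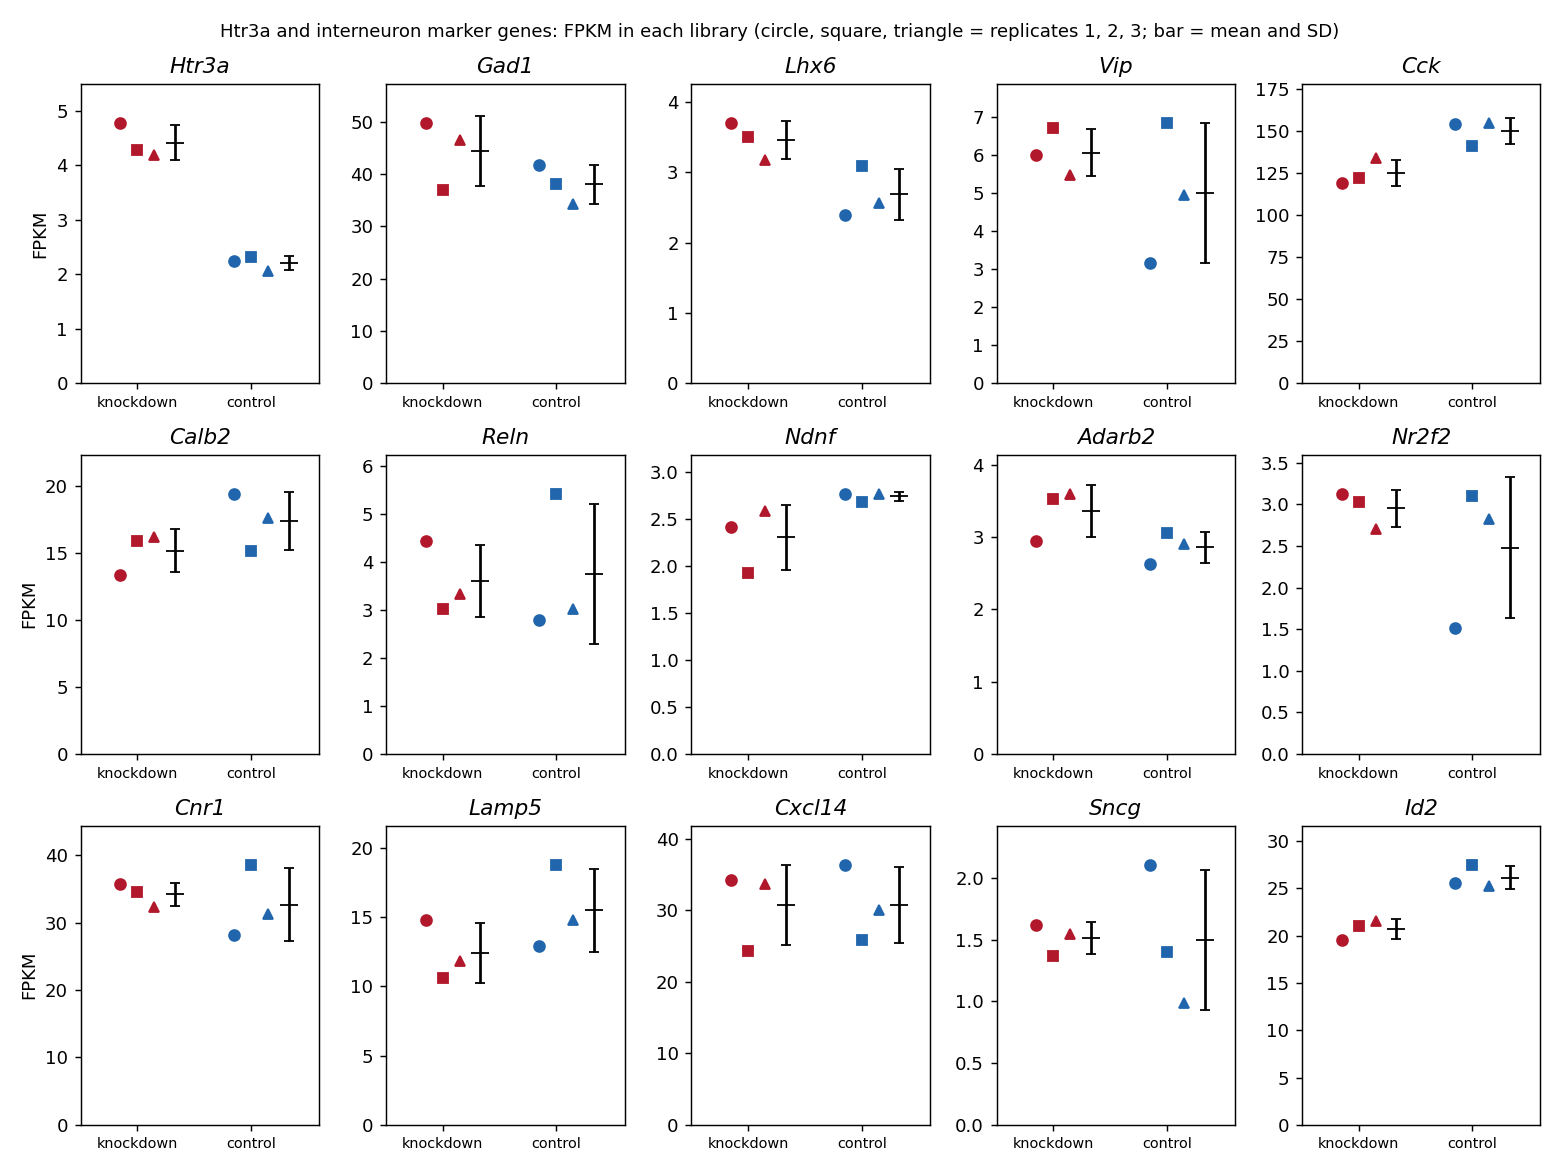
FPKM of Htr3a, Gad1, Lhx6 and the 12 markers of the 5-HT3A class in each library, knockdown in red and control in blue, with the mean and SD of each group. The knockdown libraries lie wholly above the controls for Htr3a and Lhx6 and wholly below them for Cck, Ndnf and Id2, and the groups overlap for the other 10 genes. Over all genes tested, 5.47% lay wholly higher in the knockdown group and 7.5% wholly lower.

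The other serotonin receptor genes were low. Htr1f was at 0.522, 0.39 and 0.851 FPKM in knockdown libraries and 0.792, 0.573 and 0.562 FPKM in control libraries (log2 fold change -0.10, SE 0.35, edgeR adjusted p = 0.966). Htr3b, which encodes the partner subunit of HTR3A in heteromeric channels, lies 24 kb from Htr3a on the same strand. Its counts were 0, 0 and 4 in knockdown libraries and 0, 8 and 0 in control libraries, too few to enter the test. Htr2b did not enter it either, and Htr1d, at 0.0168 to 0.231 FPKM over the 6 libraries, was not called.

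Of 9 tested genes that make, store, take up or break down serotonin, 3 had positive and 6 negative log2 fold changes, with a median of -0.09, and 0 passed an adjusted p of 0.05 in edgeR, with 0 at an unadjusted p under 0.05 too. Tph2, the neuronal tryptophan hydroxylase of raphe neurons, was at 0.186 to 0.275 FPKM across knockdown libraries and 0.0973 to 0.226 FPKM across control libraries. Slc6a4, the serotonin transporter, had a level of 0 in 4 of the 6 libraries. Maoa, the oxidase that prefers serotonin, was at 5.94 ± 0.102 FPKM across knockdown libraries and 6.1 ± 0.341 FPKM across control libraries (SD, n = 3 each), and Maob was at 5.96 FPKM and 6.45 FPKM in the same order. Ddc, which decarboxylates 5-hydroxytryptophan, was at 0.953, 2.29 and 1.33 FPKM in knockdown libraries and 1.05, 0.548 and 1 FPKM in control libraries, with a log2 fold change of 0.84 (SE 0.381, edgeR adjusted p = 0.792).

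Slc29a4, a low-affinity monoamine transporter that is also abundant in choroid plexus, was at 6.31, 10.5 and 10.5 FPKM in knockdown libraries and 14, 8.81 and 30 FPKM in control libraries. Control replicate 3 was again the highest. Its log2 fold change was -0.92 (SE 0.428, edgeR adjusted p = 0.792). Slc22a3, another such transporter, Slc18a2, the vesicular monoamine transporter, and Gch1, which makes the cofactor of tryptophan hydroxylase, had log2 fold changes of -0.55, -0.26 and -0.48, with overlapping groups.

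Chaperones and adaptors of the receptors were detected in all libraries. Of 6, 5 had positive and 1 a negative log2 fold change, with a median of 0.13, and 0 passed an adjusted p of 0.05 in edgeR. Ric3, a chaperone that assists assembly of 5-HT3 and nicotinic receptors, was at 9.27, 11.2 and 10.8 FPKM in knockdown libraries and 9.49, 10.4 and 8.08 FPKM in control libraries, so the groups overlapped. S100a10 (p11), an adaptor of the 5-HT1B and 5-HT4 receptors, was at 5.45, 6.75 and 3.68 FPKM in knockdown libraries and 3, 4.15 and 3.47 FPKM in control libraries. Its log2 fold change was 0.61 (SE 0.257, edgeR adjusted p = 0.792). It was the only 1 of the 6 at an unadjusted edgeR p under 0.05, beside 6.19% of all genes tested. The arrestin gene Arrb2 was at 13.3 FPKM across knockdown libraries and 14.8 FPKM across control libraries, with an unadjusted edgeR p of 0.0988. It was the only 1 of the 6 without overlap, where 7.5% of all genes tested lay wholly lower. Arrb1 was at 20.3 FPKM across knockdown libraries and 19.7 FPKM across control libraries. Tmem35a, a chaperone of nicotinic receptors, had a log2 fold change of 0.05. Ppp1r1b, the cyclic AMP-regulated phosphatase inhibitor that striatal neurons express strongly, was at 50.4 FPKM in knockdown replicate 1 and 12.7 to 30.9 FPKM elsewhere.

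Of 21 genes for G proteins and effectors downstream, 9 had positive and 12 negative log2 fold changes, with a median of -0.03 and a range of -0.26 to 0.4, and 0 passed an adjusted p of 0.05 in edgeR. At an unadjusted edgeR p under 0.05, 1 of the 21 was higher, beside 3.03% of all genes tested. It was Adcy9, an adenylyl cyclase, at 17.4 FPKM across knockdown libraries and 14.5 FPKM across control libraries, with overlapping groups. Prkaca, a catalytic subunit of protein kinase A, had the next smallest p and was at 70.9 FPKM across knockdown libraries and 65 FPKM across control libraries. The groups did not overlap for 2 of the 21 that were higher, Prkaca among them, and for 1 that was lower. Over all genes tested, 5.47% lay wholly higher and 7.5% wholly lower. The summed level of the 21 was 692 to 705 FPKM across knockdown libraries and 671 to 725 FPKM across control libraries.

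Genes around Htr3a on chromosome 9 were examined after its value was known. Within 1000 kb, 18 genes were tested, Htr3a included. The groups did not overlap for 3 of the other 17, beside 12.5% over the 1199 tested genes of chromosome 9, either direction counted. All 3 lay higher in the knockdown group, where 5.47% of all genes tested lay wholly higher. The nearest tested neighbours were Zbtb16, at 10.3 FPKM across knockdown libraries and 9.47 FPKM across control libraries, and Usp28, at 5.21 FPKM and 5.64 FPKM in the same order. Neither had groups that were apart. Nxpe4, whose start lies at -749 kb from that of Htr3a (the minus sign marks lower coordinates), was at 2.48, 2.21 and 1.92 FPKM in knockdown libraries and 0.979, 1.48 and 1.17 FPKM in control libraries, a log2 fold change of 0.89 (SE 0.188, edgeR adjusted p = 0.792). Gm40518, a predicted gene beside it on the other strand, had counts of 101, 36 and 42 in knockdown libraries and of 0 in each control library. It passed the count filter through the knockdown group alone, so its lack of overlap was set by the filter. Nnmt, a nicotinamide methyltransferase gene, was low, at 0.396, 0.493 and 0.257 FPKM in knockdown libraries and 0, 0.229 and 0.254 FPKM in control libraries. Its count was 26 in both knockdown replicate 3 and control replicate 3, so its groups were barely apart. Nothing about the region is read from these 3 genes. None of the 3 passed an adjusted p of 0.05 in edgeR.

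**Figure D5:**
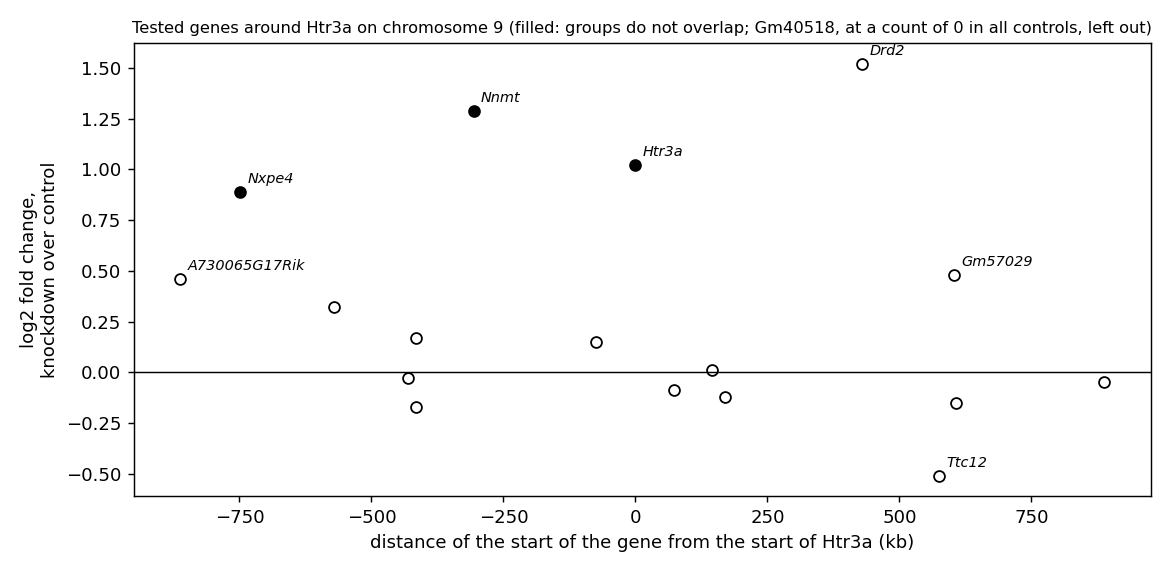
Log2 fold changes (knockdown over control) of tested genes within 1000 kb of Htr3a, plotted by the distance of their start from that of Htr3a, with filled points where the groups do not overlap. Htr3a (1.02), Nnmt and Nxpe4 (0.89) are filled, Zbtb16 and Usp28 next to Htr3a lie near 0, and Gm40518 is not drawn.

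The genes whose pattern was most like that of Htr3a were found by Pearson's r of log2(FPKM + 0.1) over the 6 libraries, among the 12248 genes whose mean level reached 1 FPKM. The 5 highest were Itih3 (r = 0.983), Cep57 (0.980), Slc7a5 (0.980), Wdr25 (0.980) and Ccdc6 (0.972). All 5 had groups that did not overlap, so r carries the group difference for which Htr3a was picked. Itih3, a heavy chain of the hyaluronan-binding inter-alpha-trypsin inhibitors, was at 10.9, 11.1 and 11.1 FPKM in knockdown libraries and 6.04, 5.77 and 5.98 FPKM in control libraries (log2 fold change 0.92, SE 0.0717, edgeR adjusted p = 0.0552). Slc7a5, a transporter of large neutral amino acids including tryptophan, was at 15.7, 14.9 and 14.4 FPKM in knockdown libraries and 12.5, 12.5 and 11.5 FPKM in control libraries. With group means subtracted, the 5 highest were Exosc5, Wdr12, Tmem186, Akap5 and Arl2bp, with r of 0.987 to 0.996. The groups overlapped for each of them. With 6 libraries such values describe these libraries only.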

How the data were processed

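Members and gene lists were chosen with earlier results of these data known. Per the submitters' processing notes, the tools included HISAT2 2.2.1, StringTie 2.1.6 and cutadapt 1.9, and the build was GRCm39. Settings, annotation release and strand option: not given in the sources used here. The authors deposited 1 estimated count and 1 FPKM value per gene and library, as the file headers show. Counts were whole numbers already, and they pile up at multiples of 4, so the number of read pairs is not known.

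Per the labels' protocols, the libraries are poly(A)-selected and strand-marked. Counts were fitted over all genes with edgeR 4.0.16 in R 4.3.3, using filterByExpr (20946 of 33385 genes kept), TMM factors (0.9895 to 1.017), the quasi-likelihood F test and Benjamini-Hochberg adjustment at 0.05. Standard errors come from the fold change and F, and intervals are at 95%. The fit was tested on simulated data. Permutation tests used scipy on log2(FPKM + 1).

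Positive log2 fold changes mean higher in knockdown. Named genes are the members, serotonin pathway genes at a mean of at least 0.1 FPKM, at most 2 genes with the smallest p of each other list, and the 5 most like Htr3a. The striatal genes, the neighbours of Htr3a, the ratios to GABAergic markers, Adarb2, Vip, Ndnf, Lamp5 and Calb2, and genes under that level were named after values were seen. Bcas2, Xist, Ttr, Slc17a7 and Prox1 were also named outside this rule. Alternatives were RLE factors, no filter, a replicate block, DESeq2 1.42.0, counts divided by 4, a Y-linked term, the 4 libraries without Y-linked counts, leaving out each library, and limma 3.58.1 on log2(FPKM + 1) and log2(FPKM + 0.1). Protein sequences were not used here. The result for 1 gene of the GABAergic list is not reported here.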

Additional observations from a re-analysis of the deposited data

How the results depend on the processing

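Htr3a, which was picked for this difference, kept its direction in all 16 alternatives. These refit the same 6 libraries or some of them, so the kept direction adds no support. Its log2 fold change was 0.97 to 1.06 when each library was left out, and 0.76 in limma on log2(FPKM + 1), with or without the FPKM filter, where the added 1 shrinks low values. None of the other 9 receptors passed an adjusted p of 0.05 in any alternative. At an unadjusted p under 0.05 the count over the 9 was 0 to 1 when leaving out a library: Htr2c (0.44) without control replicate 3 and Htr5b (-0.58) without knockdown replicate 2. Over all genes the count past an adjusted p of 0.05 was 0 in edgeR, 74 in DESeq2, 1 with counts divided by 4, 1 with a Y-linked term, and 0 to 6 when leaving out a library, with the 6 without control replicate 1. Of 110 tested genes of the fixed lists, 0 passed in edgeR and 1 (Fibcd1) in DESeq2.

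Uncalled receptors changed sign as follows, and the cause was not tested. Leaving out libraries gave a range of -0.06 to 0.17 for Htr1a, -0.22 to 0.28 for Htr1b, -0.33 to 0.44 for Htr2c, -0.21 to 0.29 for Htr4, -0.0046 to 0.35 for Htr5a and -0.58 to 0.06 for Htr5b. In the 4 libraries without Y-linked counts and with a Y-linked term, Htr1b was at -0.13 in both, Htr2c at 0.46 and 0.47, and Htr5b at 0.03 in both. In limma, Htr1b was at -0.003 and Htr4 at -0.01 on log2(FPKM + 1), with or without the filter, and at -0.02 and -0.04 on log2(FPKM + 0.1).

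The labels name no pairing of the libraries by replicate number. Correlations of same-numbered deviations were -0.0116, -0.0523 and -0.0991, beside -0.0791 to 0.1253 for libraries of different numbers. These values showed no pairing, but they cannot exclude one. With the replicate block Htr3a stayed at 1.02, Htr2c was at 0.01 and Htr4 at -0.02, and 0 genes were called. Of the 5 genes most like Htr3a, a minimum mean of 5 FPKM left 3 over the 6 libraries and 2 with group means subtracted. The others had means under 5 FPKM, so this loss is set by the filter. With group means subtracted, 3 remained with a pseudocount of 1.

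With 3 libraries a group, the 95% intervals of Htr6 (0.35, from -0.26 to 0.96) and Htr7 (0.29, from -0.2 to 0.78) span 0.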

Other observations

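Lists of regions within and beside the hippocampus were compared as a check on dissection, and 0 of their genes passed an adjusted p of 0.05 in edgeR. All 4 ventral markers of CA1 and dentate gyrus had positive log2 fold changes, with a median of 0.32, led by Trhr (0.55, SE 0.323) and Gpr101 (0.39, SE 0.329). Their summed level was 48.9 to 63.1 FPKM across knockdown libraries and 29.2 to 77 FPKM across control libraries, so the groups overlapped. Of 4 dorsal markers, 2 were positive and 2 negative, with a median of -0.09. Fibcd1, a CA1 gene, was at 25.2, 37.4 and 24.4 FPKM in knockdown libraries and 14.4, 17.6 and 17.9 FPKM in control libraries. Its groups did not overlap, where 5.47% of all genes lay wholly higher, and its edgeR p was 0.00188 unadjusted and 0.792 adjusted. Lct was at 2.95 FPKM across knockdown libraries and 5.13 FPKM across control libraries. Over the 12 principal neuron markers the median was 0.01, with 6 positive and 6 negative, and Zbtb20 had a log2 fold change of -0.29.

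The median was 0.06 for 6 neocortical genes, led by Rorb (-0.49) and Foxp2 (1.26). Foxp2 was at 0.747 FPKM in knockdown replicate 1, the library with the striatal transcripts, and at 0.109 to 0.206 FPKM in the other 5. For 6 thalamic genes the median was -0.10, led by Plekhg1 (-0.39) and Rora (-0.16). Plekhg1 was lower without overlap, where 7.5% of all genes lay wholly lower, with an edgeR p of 0.00448 unadjusted and 0.792 adjusted. For 5 tested medial habenula genes the median was -0.13, with Gpr151 at 1.03 and Nwd2 at -0.13. Of the raphe list, 3 of 6 genes entered the test, with a median of -0.22, among them Tph2 (0.53) and Slc17a8 (-0.22).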
